A study of Mus musculus with 6 samples.

Results

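The Rab GTPases of vesicle traffic were followed in RNA of activated mouse lung ILC2s, the group 2 innate lymphoid cells. Members were the protein-coding genes named Rab with a number, an optional letter and an optional digit. This rule found 52 of the 16588 genes in the counts table. It uses names and gene type alone, though it was chosen with earlier results of these data known. No row of the table had under 10 counts in total. RNA was sequenced from 3 libraries labelled Cnr2 KO, here the KO-labelled libraries, and 3 wild-type (WT) libraries labelled C57BL/6. The product of Cnr2 is the cannabinoid receptor CB2, and the groups compare ILC2s with and without a Cnr2 knockout label. In both groups, mice took 0.5 µg of intranasal IL-33 on each of 3 days, cells were isolated from the lung on day 4, and the sorted ILC2s spent 18 h in culture. The cDNA came from 10 pg of RNA by a low-input kit. The labels give no age, and do not say whether a library is 1 animal, a pool or 1 of several cultures. The series title names adipose tissue, whereas the sample labels name lung.

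Rab proteins are small GTPases that mark the membranes of the secretory and endocytic routes. In the GTP-bound form, loaded by exchange factors, a Rab recruits effectors such as motors and tethers. GTPase-activating proteins then return it to the GDP-bound form, which the GDP dissociation inhibitors carry through the cytosol. In lymphocytes, Rab proteins are known for cytokine release, granule exocytosis and the return of surface receptors from endosomes.

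Total counts were 17867541 to 19399819 in the KO-labelled libraries and 19056174 to 129617689 in WT libraries. The deepest was WT replicate 2, at 6.88 times the mean total of the rest. Cnr2 itself was not lower but higher in the KO-labelled libraries, at 7.49 ± 0.0627 CPM against 3.69 ± 0.449 CPM in WT (SD, n = 3 each). Counts per gene do not show which part of the transcript was read. Whether the knockout allele leaves a transcript or the labels are crossed was not tested. The group names used here are those of the labels, and every direction below rests on them. A level is CPM (counts scaled to the library total) after TMM scaling, which corrects for library composition. All 12 ILC2 markers were measured, with 8 called higher and 3 called lower. Gata3 was 3.72-fold and Rora 2.24-fold higher, Il2ra, Il13 and Areg were lower, with log2 fold changes of -1.02, -0.91 and -0.80, and Il5 was not called. Thy1 was low, at 3.69 ± 0.225 CPM in the KO-labelled libraries and 0.92 ± 0.0652 CPM in WT. The summed levels of markers of several other cell types did not overlap between groups. Markers not measured had no row in the counts table. T cell markers (7 of 11 measured) summed to 110.4 to 116.7 CPM in the KO-labelled libraries and 60.97 to 63.92 CPM in WT. Dendritic cell markers (5 of 6) summed to 20.4 to 25.6 CPM in the KO-labelled libraries and 10.9 to 13.5 CPM in WT, and B cell markers (1 of 5) to 25.1 to 26.3 CPM in the KO-labelled libraries and 16.1 to 17.2 CPM in WT. Endothelial markers (2 of 5) summed to 39.3 to 40.3 CPM in the KO-labelled libraries and 106 to 114.4 CPM in WT, and ILC3 markers (4 of 5) to 0.822 to 1.16 CPM in the KO-labelled libraries and 4.66 to 4.83 CPM in WT. Most of the T cell sum was Trbc1 and Trbc2, most of the dendritic cell sum Xcr1, and most of the endothelial sum Pecam1. Other members went against these sums. Of the T cell markers, 4 were called higher and 2, Trac and Cd6, lower. Of the dendritic cell markers, Xcr1 was called higher, while Batf3, with 0 counts in the KO-labelled libraries, was called lower. Natural killer cell markers (2 of 6) and fibroblast markers (4 of 5) overlapped between groups. Macrophage markers (5 of 8) summed to 3.49 to 6.49 CPM in the KO-labelled libraries and 1.26 to 2.21 CPM in WT, and neutrophil markers (2 of 6) to at most 0.943 CPM in any library. The part of such cells in the Rab levels below was not tested. In such bulk RNA, fewer cells of a type and less RNA per cell cannot be told apart.

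Most tested Rab genes differed between the groups, and more were higher than lower in the KO-labelled libraries. Of the 52 members, 44 passed the filter on low counts and were tested. They were tested by edgeR (quasi-likelihood) over all 12150 genes that passed, and a Benjamini-Hochberg adjusted p under 0.05 was called. Of the 44, 24 were higher, 8 were lower and 12 were not called, so 72.7% of tested Rab genes were called, against 66.3% of all genes tested. The share called higher was 54.5%, against 33.1% of all genes, and the share called lower was 18.2%, against 33.2% of all genes. Most differences were small. The median absolute log2 fold change was 0.27 for Rab genes and 0.40 for all genes, and 16 of the 24 higher and 4 of the 8 lower members differed less than 1.5-fold. At least 2-fold differences were called in 5 higher members, beside 8.89% of all genes, and in 2 lower members, beside 7.47%. Together these were 15.9% of the tested members, against 16.4% of all genes. The values of the 2 groups did not overlap in 31 members (70.5%), against 68.9% of all genes. The median log2 fold change of Rab genes was 0.17, beside 0.01 for all genes. The count of lower members was 5 without WT replicate 2, because Rab14, Rab18 and Rab43 were then not called. Since no label ties replicates to separate animals, p-values speak to the spread of these libraries alone.

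**Figure D1:**
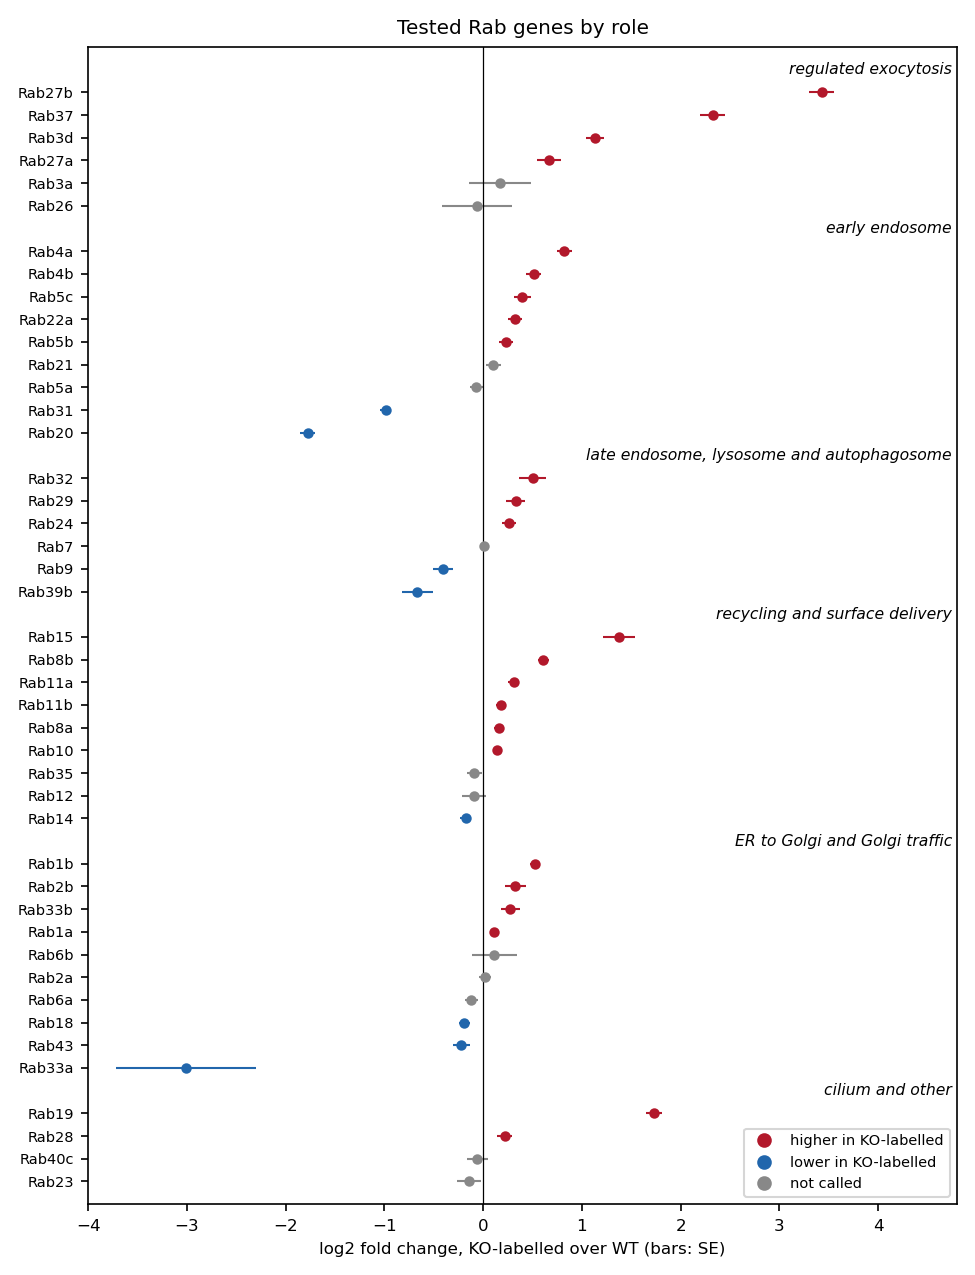
Log2 fold changes (KO-labelled libraries over WT, horizontal axis, bars are standard errors) of the 44 tested Rab genes, grouped by role. Rab27b stands farthest to the right at 3.43 and Rab33a, which had few counts, farthest to the left at -3.01.

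Rab genes of regulated exocytosis held the largest increases. These Rabs dock secretory granules and vesicles at the plasma membrane. Of 8 members, 6 were tested, 4 were higher in the KO-labelled libraries, 0 were lower and 2 were not called, so 66.7% were called, close to the 66.3% of all genes. Rab27b, which acts in granule docking in mast cells and platelets, had 468, 527 and 440 counts in the KO-labelled libraries, against 45, 300 and 47 counts in WT. Its levels were 24.0, 28.1 and 24.4 CPM in the KO-labelled libraries, against 2.36, 2.32 and 2.48 CPM in WT. The 3 WT values lay close together despite the deeper WT library, and the groups were far apart. The difference was 10.8-fold (log2 fold change 3.43, SE 0.12, edgeR adjusted p = 2.07e-14). Rab27b lies on chromosome 18, 69979131 to 70141605 (GRCm38).

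Rab37, which takes part in the secretion of granules and vesicles, stood at 20.2, 21.3 and 19.9 CPM in the KO-labelled libraries and at 4.52, 4.20 and 3.38 CPM in WT. It was 5.01-fold higher, without overlap (log2 fold change 2.33, SE 0.12, edgeR adjusted p = 4.92e-12). Rab37 (chromosome 11, 115091431 to 115162236) shares its locus with Cd300lf on the other strand, and the strand setting of the counting is not given in the sources used here. Cd300lf had no row in the counts table. Rab3d, known from the zymogen granules of exocrine cells, was at 27, 27.4 and 25.4 CPM in the KO-labelled libraries and at 12.4, 11.4 and 13.1 CPM in WT. Each KO-labelled library was above each WT library, and the difference was 2.20-fold (log2 fold change 1.13, SE 0.09, edgeR adjusted p = 2.79e-09).

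Rab27a, whose loss in humans causes an immune deficiency with faulty release of cytotoxic granules, rose less than its paralog. It was at 28.7, 25.8 and 20.3 CPM in the KO-labelled libraries and at 14.2, 17.6 and 14.4 CPM in WT. The groups did not overlap, although the KO-labelled libraries spread widely, and the log2 fold change was 0.67 (SE 0.12, adjusted p by edgeR = 6.29e-05). Rab3a, a Rab of synaptic vesicles, and Rab26, another secretory granule Rab, were near 1 or 2 CPM in every library and were not called (edgeR adjusted p = 0.639 and 0.885). Rab27b and Rab37 are also known from mast cells. Of the markers of eosinophils, basophils and mast cells, 5 of 8 were measured, and Epx, Prg2 and Ms4a2 had no row in the counts table. The 5 measured markers summed to 195.6 to 206.0 CPM in the KO-labelled libraries and to 105.7 to 114.8 CPM in WT. Most of this sum was Kit, at 173.1 ± 7.90 CPM in the KO-labelled libraries and 98.2 ± 6.21 CPM in WT. Ccr3, the eotaxin receptor, was at 24.2 ± 2.43 CPM in the KO-labelled libraries and 8.29 ± 0.460 CPM in WT. Cpa3, the mast cell carboxypeptidase, was at 2.46 ± 0.662 CPM in the KO-labelled libraries and 1.08 ± 0.877 CPM in WT, and Fcer1a was at 1.05 ± 0.374 CPM in the KO-labelled libraries and 0.0279 ± 0.0265 CPM in WT. Mcpt8, a basophil protease, was at 0.468 ± 0.205 CPM in the KO-labelled libraries and 1.57 ± 0.212 CPM in WT. Platelet and red cell markers, 4 of 6 measured, summed to 5.19 to 6.93 CPM in the KO-labelled libraries and 0.788 to 1.38 CPM in WT. Most of that was the haemoglobin gene Hba-a1, at 5.12 ± 0.575 CPM in the KO-labelled libraries and 0.833 ± 0.161 CPM in WT. The platelet markers Pf4, Ppbp and Itga2b overlapped between groups and had too few counts to be tested. Epithelial markers, also 4 of 6 measured, summed to 45.7 to 51.6 CPM in the KO-labelled libraries and 12.6 to 27.1 CPM in WT. Except in WT replicate 1, most of this sum was Epcam, at 46.4 ± 3.12 CPM in the KO-labelled libraries and 10.95 ± 0.442 CPM in WT. Krt18 was called lower, and Krt8 had 0 counts in the KO-labelled libraries and 164, 247 and 0 counts in WT. Cdh1 was at 0.0883 ± 0.112 CPM in the KO-labelled libraries and 0.782 ± 0.827 CPM in WT. The part of such cells in the levels of Rab27b, Rab37 and Rab3d was not tested.

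**Figure D2:**
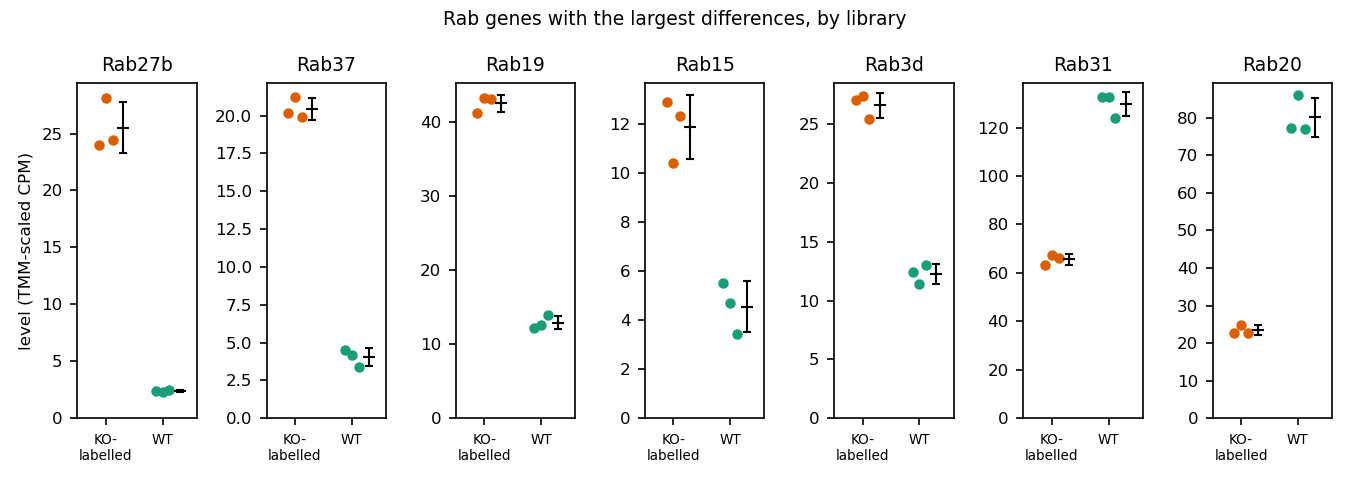
Levels (TMM-scaled CPM, each axis from 0) of 7 Rab genes in each of 3 KO-labelled libraries and 3 WT libraries, with the mean and SD beside the points. In these 7 genes no value of one group reached the other group, with Rab31 and Rab20 lower and the other 5 higher in the KO-labelled libraries.

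Early endosome Rabs moved in both directions. All 9 members were tested, with 5 higher and 2 lower in the KO-labelled libraries and 2 not called. The share called was 77.8%, against 66.3% of all genes. Rab20, an endosome and phagosome Rab that is induced by low oxygen in some cells, had the largest decrease among members above 1 CPM. It was at 22.7, 24.9 and 22.7 CPM in the KO-labelled libraries and at 77.2, 86.0 and 77.1 CPM in WT. Every WT library was over 3 times as high as every KO-labelled library, at -1.78 on the log2 scale (SE 0.07, edgeR adjusted p = 1.22e-13). Rab31, also called Rab22b, acts between the trans-Golgi network and endosomes. It stood at 63.2, 67.6 and 66 CPM in the KO-labelled libraries and at 132.5, 132.8 and 123.9 CPM in WT. The groups were well apart, 1.98-fold lower in the KO-labelled libraries (log2 fold change -0.99, SE 0.06, edgeR adjusted p = 1.11e-11).

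The promoter window of Rab20 is shown because Rab20 had the strongest decrease of any well-counted Rab gene. It spans chr8:11478591-11478890 on the minus strand (RefSeq, GRCm38.p6), from 250 bases before the start of transcription to 50 bases after it, and the capitals mark its 1 E-box, CACGTG. The GENCODE annotation starts Rab20 earlier, at 11478710, inside this window, and the E-box lies after that start.
Rab20: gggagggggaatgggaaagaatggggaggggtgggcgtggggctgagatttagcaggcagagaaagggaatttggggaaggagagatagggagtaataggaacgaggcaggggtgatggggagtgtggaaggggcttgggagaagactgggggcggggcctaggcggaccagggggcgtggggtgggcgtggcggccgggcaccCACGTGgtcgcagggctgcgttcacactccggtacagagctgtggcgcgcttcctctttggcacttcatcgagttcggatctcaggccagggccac
The E-box, a site class bound by factors such as MYC and TFEB, was searched on both strands. It occurred in 6 of 55 windows of the 43 Rab genes with a window (10.9%) and in 7.15% of all 32851 windows. Those 6 genes were Rab20, Rab21, Rab23, Rab24, Rab27a and Rab5a, which included higher, lower and uncalled genes.

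Other early endosome Rabs were higher. Rab4a, which returns receptors rapidly to the surface, was at 41.2, 44.5 and 44.8 CPM in the KO-labelled libraries and at 25.1, 24.5 and 24.3 CPM in WT. Its groups were separate, 0.82 apart on the log2 scale (SE 0.07, edgeR adjusted p = 9.33e-09). Its paralog Rab4b was at 50.1, 52.4 and 49.4 CPM in the KO-labelled libraries and at 31.1, 37.0 and 37.9 CPM in WT. That difference was also without overlap (log2 fold change 0.51, SE 0.08, edgeR adjusted p = 1.07e-05). Rab4a and Rab4b each overlap a second annotated protein-coding gene on the same strand, so some of their reads may be shared. Of the Rab5 paralogs, which drive fusion of early endosomes, Rab5c had a log2 fold change of 0.40 and Rab5b one of 0.23, and both were called. Rab5a was not called, with a log2 fold change of -0.07 and an approximate 95% interval of -0.20 to 0.06. Rab22a, an early endosome Rab related to Rab31, rose, with a log2 fold change of 0.32 (edgeR adjusted p = 4.60e-04), opposite to Rab31. Rab21, which acts in integrin traffic, was not called (log2 fold change 0.10).

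Rab genes of recycling endosomes and delivery to the surface were mostly slightly higher. Of 11 members, 9 were tested, with 6 higher and 1 lower in the KO-labelled libraries and 2 not called. Thus 77.8% were called, against 66.3% of all genes. Rab8b, which carries cargo from the Golgi and recycling endosomes to the plasma membrane, had the most CPM of this class. It stood at 446.2, 430.2 and 444.0 CPM in the KO-labelled libraries and at 271.7, 317.1 and 275.5 CPM in WT. These values were separate by more than the spread within either group, and the difference was 1.52-fold (log2 fold change 0.61, SE 0.05, edgeR adjusted p = 1.00e-08). Rab15, an endosomal recycling Rab, was at 12.9, 10.4 and 12.3 CPM in the KO-labelled libraries and at 5.52, 4.68 and 3.43 CPM in WT. It had the largest difference of the class (log2 fold change 1.38, SE 0.16, edgeR adjusted p = 3.77e-07). Fntb, on the other strand over Rab15, was at 14.1 ± 1.62 CPM in the KO-labelled libraries and 16.0 ± 0.909 CPM in WT.

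Rab11a, the main Rab of the recycling endosome, was at 104.2, 110.7 and 111.9 CPM in the KO-labelled libraries and at 92.0, 90 and 81.3 CPM in WT. Its paralog Rab11b was at 153.1, 156.8 and 157.3 CPM in the KO-labelled libraries and at 135.0, 134.2 and 144.4 CPM in WT. Both were separate between groups and slightly higher, with log2 fold changes of 0.31 and 0.18 (edgeR adjusted p = 1.26e-04 and 3.81e-03). Rab8a and Rab10, which deliver vesicles to the surface, had log2 fold changes of 0.16 and 0.14 and were called by a small margin. Rab8a had an edgeR adjusted p of 0.0672 without replicate 2 of the KO-labelled libraries, 0.0572 without WT replicate 1 and 0.0700 without WT replicate 2. Rab10 had 0.0891 without replicate 2 of the KO-labelled libraries and 0.0806 without WT replicate 1. Rab14, which links endosomes and the Golgi, was the 1 lower member (log2 fold change -0.18), with an adjusted p of 0.0642 without WT replicate 2. Rab12 and Rab35, 2 further endosomal Rabs, were not called, both with a log2 fold change of -0.09.

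Late endosome, lysosome and autophagosome Rabs were split. Of 7 members, 6 were tested, with 3 higher and 2 lower in the KO-labelled libraries (83.3% called, against 66.3% of all genes). Rab7, which brings late endosomes to fusion with lysosomes, was at 222.7, 222.5 and 228.8 CPM in the KO-labelled libraries and at 217.8, 230.6 and 219.3 CPM in WT. The groups overlapped, and the log2 fold change was 0.01 with an approximate 95% interval of -0.08 to 0.10 (edgeR adjusted p = 0.828). Rab32, which sorts cargo to lysosome-related organelles, was at 13.5, 11.1 and 12.5 CPM in the KO-labelled libraries and at 7.09, 10.0 and 8.45 CPM in WT. It was higher without overlap (log2 fold change 0.50, SE 0.14, edgeR adjusted p = 3.20e-03). Rab29, a partner of the kinase LRRK2, was at 19.6, 23.9 and 22.2 CPM in the KO-labelled libraries and at 18.4, 18.0 and 15.6 CPM in WT. This difference was also without overlap (log2 fold change 0.33, edgeR adjusted p = 6.89e-03), but its adjusted p was 0.0514 without replicate 2 of the KO-labelled libraries. Rab24, an autophagy Rab, had a log2 fold change of 0.26. It overlaps the opposite-strand gene Prelid1, which stood at 690.2 ± 16.5 CPM in the KO-labelled libraries and 598.6 ± 12.9 CPM in WT, so reads of Rab24 are uncertain.

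Rab9, which returns receptors from late endosomes to the trans-Golgi network, was at 13.0, 15.0 and 14.2 CPM in the KO-labelled libraries and at 19.9, 18.9 and 17.0 CPM in WT. It was lower in every KO-labelled library than in every WT library (log2 fold change -0.41, SE 0.10, edgeR adjusted p = 1.64e-03). Rab39b, an X-linked Rab whose loss in humans causes intellectual disability, was at 6.73, 5.34 and 5.54 CPM in the KO-labelled libraries and at 7.35, 9.95 and 10.5 CPM in WT. The groups came close without overlapping (log2 fold change -0.67, SE 0.16, edgeR adjusted p = 1.05e-03).

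Among the Rabs of transport from the endoplasmic reticulum (ER) and of the Golgi, Rab1b changed most clearly. Of 12 members, 10 were tested, with 4 higher and 3 lower in the KO-labelled libraries (70% called, against 66.3% of all genes). Rab1b, which acts with Rab1a in transport from the ER to the Golgi, was at 254.0, 257.5 and 242.2 CPM in the KO-labelled libraries and at 168.1, 180.8 and 175.5 CPM in WT. It was 1.44-fold higher with a wide gap between groups (log2 fold change 0.52, SE 0.05, edgeR adjusted p = 1.36e-08). Rab1a was at 283.0, 283.6 and 278.0 CPM in the KO-labelled libraries and at 255.9, 274.3 and 249.6 CPM in WT. This smaller difference (log2 fold change 0.11, edgeR adjusted p = 0.0425) was not called in 7 of 14 alternatives, 5 of which left out 1 library each. Those were without replicate 1, 2 or 3 of the KO-labelled libraries, at adjusted p = 0.0827, 0.110 and 0.0580, and without WT replicate 1 or 3, at 0.149 and 0.187.

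Rab2b, a Golgi Rab, was at 14.1, 17.7 and 15.7 CPM in the KO-labelled libraries and at 12.8, 13.0 and 11.8 CPM in WT. Rab33b, which binds the autophagy protein ATG16L1, was at 18.3, 17.8 and 16.0 CPM in the KO-labelled libraries and at 14.6, 14.1 and 14.4 CPM in WT. Both were modestly higher, with log2 fold changes of 0.33 and 0.27. Rab2b had an edgeR adjusted p of 0.0935 without replicate 2 of the KO-labelled libraries. It overlaps the opposite-strand gene Tox4, so reads of Rab2b are uncertain. Tox4 stood at 157.0 ± 11.3 CPM in the KO-labelled libraries and 181.3 ± 4.87 CPM in WT. Rab33b had 0.0804 and 0.0588 without replicate 1 and 2 of those libraries and 0.0696 without WT replicate 2. Rab18, a Rab of the ER and lipid droplets, was at 126.0, 125.3 and 122.8 CPM in the KO-labelled libraries and at 134.4, 153.9 and 137.0 CPM in WT. Its log2 fold change was -0.19 (edgeR adjusted p = 5.95e-03), with an adjusted p of 0.0612 without WT replicate 2, the highest WT value. Rab43, a Golgi Rab, overlapped between groups (log2 fold change -0.22, edgeR adjusted p = 0.0367). Its adjusted p was 0.155 and 0.102 without replicate 1 and 3 of the KO-labelled libraries and 0.0697 and 0.262 without WT replicate 1 and 2. Rab2a, Rab6a and Rab6b were not called, and Rab2a had a log2 fold change of 0.02 with an approximate 95% interval of -0.09 to 0.14.

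Rab33a, named here after its values were seen because it lay under the level set for full description, had 0, 0 and 6 counts in the KO-labelled libraries and 16, 132 and 13 counts in WT. It was called lower (edgeR adjusted p = 1.02e-03), at 0.111 ± 0.192 CPM in the KO-labelled libraries and 0.850 ± 0.168 CPM in WT. All 6 counts came from replicate 3 of the KO-labelled libraries. The log2 fold change was -3.01 with all libraries, -2.41 without replicate 1 and -2.43 without replicate 2 of the KO-labelled libraries. Without replicate 3 the 2 KO-labelled libraries left had 0 counts, and for that pair alone a floor of 3 counts over both puts the level at least 10.8-fold lower. The other 8 members were not tested, with 11 to 74 counts over all 6 libraries. They were Rab3b, Rab13, Rab17, Rab30, Rab34, Rab36, Rab39 and Rab44, and none averaged above 0.356 CPM. A total of 7 further Rab genes of the GENCODE annotation (Rab25, Rab38, Rab3c, Rab40b, Rab42, Rab7b and Rab9b) is not analysed here.

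Among the remaining members, Rab19 stood out. Of 5 members of this mixed class, 4 were tested, with 2 higher in the KO-labelled libraries, 0 lower and 2 not called. The share called was 50%, against 66.3% of all genes. Rab19, one of the less studied Rabs, was at 41.3, 43.3 and 43.2 CPM in the KO-labelled libraries and at 12.2, 12.6 and 13.9 CPM in WT. It was 3.32-fold higher with little spread in either group (log2 fold change 1.73, SE 0.08, edgeR adjusted p = 9.84e-13). Rab19 (chromosome 6, 39381175 to 39390380) overlaps 0 other annotated genes. Rab28, a Rab of the cilium base, was at 28.4, 28.3 and 28.1 CPM in the KO-labelled libraries and at 23.5, 25.0 and 24.2 CPM in WT. It was called with a log2 fold change of 0.22 (edgeR adjusted p = 0.0195), and had an adjusted p of 0.0749 without WT replicate 1. Rab23, an inhibitor of Hedgehog signalling, and Rab40c, a Rab with a SOCS box, were not called.

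The promoter window of Rab19 is shown as that of the most increased Rab gene for which a sequence is given here. It spans chr6:39381103-39381402 on the plus strand (RefSeq, GRCm38.p6), and the capitals mark 2 overlapping matches to the interferon-stimulated response element, searched on both strands as 2 GAAA cores with 2 bases between. The GENCODE annotation starts Rab19 earlier, at 39381175, inside this window, and the capitals lie after that start.
Rab19: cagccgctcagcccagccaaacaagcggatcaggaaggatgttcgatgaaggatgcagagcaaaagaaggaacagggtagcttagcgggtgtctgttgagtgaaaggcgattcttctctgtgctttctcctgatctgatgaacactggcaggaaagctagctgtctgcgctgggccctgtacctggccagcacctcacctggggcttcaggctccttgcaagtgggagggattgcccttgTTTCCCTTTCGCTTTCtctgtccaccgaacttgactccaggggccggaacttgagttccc
This motif was found in 1 of the 55 Rab windows (1.82%), that of Rab19, and in 3.44% of all windows. The GATA motif AGATAA was found in 2 Rab windows (3.64%, against 11.2% of all) and the AP-1 motif TGANTCA in 3 (5.45%, against 7.81%). The cAMP response element TGACGTCA was found in 1 (1.82%, against 1.79%), that of Rab5a, and the NF-kB motif in 0 (against 0.411%). A match describes the letters in the window, not binding.

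Between genes, levels can be set side by side only per length, so CPM was divided by the length of the merged exons in kb. Per kb, Rab1b led in the KO-labelled libraries at 110.6 CPM per kb, ahead of Rab8b at 93.0, Rab7 at 86.1 and Rab1a at 74.1, and none of these neighbours overlapped. In WT, Rab7 led at 85.3 CPM per kb, ahead of Rab1b at 76.9 and Rab1a at 68.4. Further down the WT order, Rab1a, Rab2a, Rab8b and Rab20 each overlapped the next, down to Rab10. Rab8b was therefore 2nd in the KO-labelled libraries and 5th in WT, while Rab20 was 16th in the KO-labelled libraries, at 16.9 CPM per kb, and 6th in WT, at 57.5. Rab19 was 9th in the KO-labelled libraries and 26th in WT. Although Rab27b changed most, it was a minor Rab by level, at 2.39 CPM per kb in the KO-labelled libraries and 0.224 in WT.

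**Figure D3:**
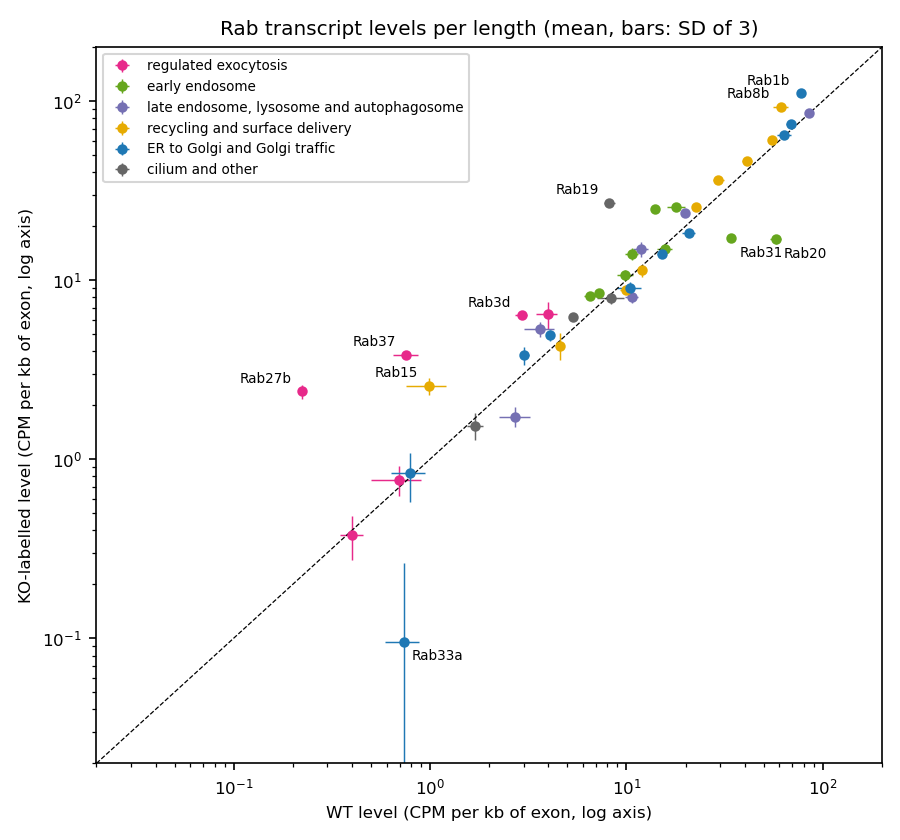
Mean level per kb of exon (CPM per kb, log axes) of the 44 tested Rab genes, with KO-labelled libraries on the vertical and WT on the horizontal axis, bars are SD of 3 libraries and the dashed line marks equal levels. Abundant Rabs lie near the line, Rab27b, Rab37, Rab15, Rab3d and Rab19 above it, and Rab20, Rab31 and Rab33a below it (the lower bar of Rab33a runs past 0 and is cut by the log axis).

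Summed per kb over all 52 members, the Rab level was 932.6 ± 10.3 CPM per kb in the KO-labelled libraries and 840.4 ± 29.5 in WT. ER and Golgi Rabs made up 32.2 ± 0.189% of it in the KO-labelled libraries and 31.4 ± 0.514% in WT. Recycling Rabs made up 30.97 ± 0.178% in the KO-labelled libraries and 28.2 ± 0.291% in WT. Early endosome Rabs made up 15.1 ± 0.193% in the KO-labelled libraries and 20.6 ± 0.164% in WT. In that class, Rab20 (16.9 against 57.5 CPM per kb in WT) and Rab31 (17.2 against 34.0) were lower, while 5 of 9 members were called higher. Late endosome, lysosome and autophagosome Rabs made up 15 ± 0.103% in the KO-labelled libraries and 15.9 ± 0.331% in WT. The mixed class with Rab19 made up 4.58 ± 0.144% in the KO-labelled libraries and 2.82 ± 0.245% in WT. Regulated exocytosis Rabs were a small part, at 2.16 ± 0.132% in the KO-labelled libraries and 1.07 ± 0.0112% in WT. These shares are descriptions without a test.

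Within subfamilies, the balance of paralogs differed in some and was close in others. Rab27b carried 27.4 ± 3.65% of the Rab27 level per kb in the KO-labelled libraries and 5.39 ± 0.704% in WT. Rab31 carried 67.9 ± 0.320% of the summed Rab22a and Rab31 level in the KO-labelled libraries and 83.9 ± 1.51% in WT. Both shares were without overlap between groups. Rab8b carried 66.9 ± 1.12% of the Rab8 level in the KO-labelled libraries and 59.5 ± 3.00% in WT. Rab1b carried 59.9 ± 0.513% of the Rab1 level in the KO-labelled libraries and 52.9 ± 0.952% in WT. The shares of Rab8b and Rab1b were also without overlap. Rab2a carried 94.5 ± 0.560% of the Rab2 level in the KO-labelled libraries and 95.5 ± 0.424% in WT, close but without overlap. By contrast, the shares of Rab11a overlapped, at 58.9 ± 0.577% of the Rab11 level in the KO-labelled libraries and 56.6 ± 2.60% in WT.

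**Figure D4:**
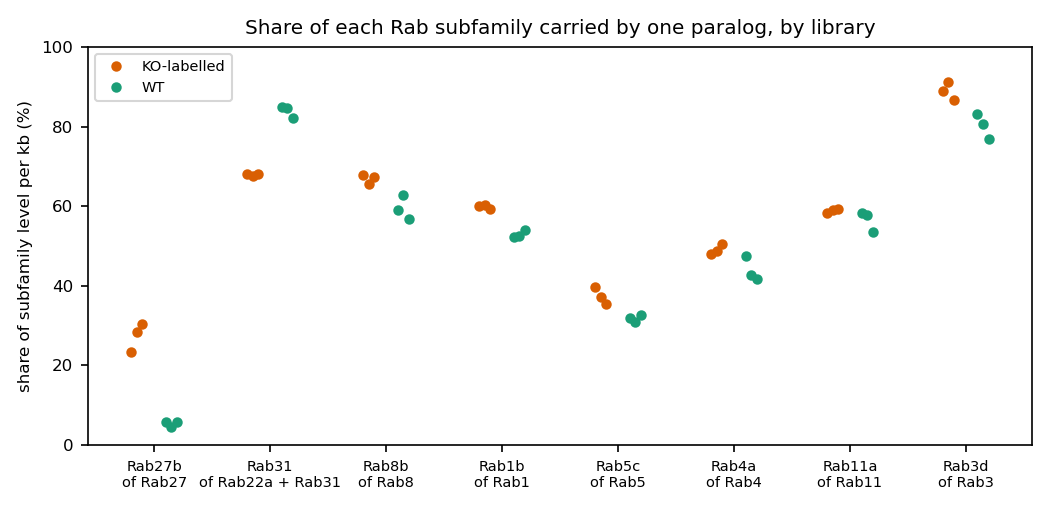
Share of the level per kb of a Rab subfamily carried by 1 paralog (percent, vertical axis) in each KO-labelled library and each WT library. The share of Rab27b lies at 23.3 to 30.4% in the KO-labelled libraries and at 4.59 to 5.89% in WT, whereas the shares of Rab11a meet between the groups.

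Genes that regulate or bind Rabs were also more often higher than lower. Of 138 such genes measured, 130 were tested, with 59 higher (45.4%, against 33.1% of all genes) and 25 lower (19.2%, against 33.2%) in the KO-labelled libraries. Of 8 genes of prenylation, escort and GDP dissociation, 3 were higher and 3 lower, with a median log2 fold change of 0.05. Thus 75% were called, against 66.3% of all genes. Both subunits of the enzyme that attaches the lipid anchor of Rabs were lower. Rabggtb was at 32.9 ± 2.74 CPM in the KO-labelled libraries and 58.1 ± 2.74 CPM in WT (log2 fold change -0.83, edgeR adjusted p = 1.12e-08), and Rabggta had a log2 fold change of -0.35. The prenylated Rab acceptor Rabac1 was higher, with a log2 fold change of 0.55.

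Of 46 tested exchange factor genes, 23 were higher and 9 lower (69.6% called, against 66.3% of all genes), with a median log2 fold change of 0.18. Ric1, whose product activates Rab6 with Rgp1, was at 19.2 ± 1.38 CPM in the KO-labelled libraries and 5.77 ± 1.31 CPM in WT (log2 fold change 1.67, edgeR adjusted p = 3.66e-09). Dennd1c, of the DENN family of exchange factors, Rin3, an exchange factor for Rab5 and Rab31, and Sbf1 had log2 fold changes of 0.98, 0.91 and 0.67. Of 32 tested GTPase-activating protein genes, 14 were higher and 5 lower (59.4% called), with a median log2 fold change of 0.14. Tbc1d10c, Rab3gap2, Tbc1d9b and Tbc1d10b had log2 fold changes of 0.60, 0.62, 0.55 and 0.53 (edgeR adjusted p = 1.65e-08 or lower).

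Of 44 tested effector genes, 19 were higher and 8 lower (61.4% called, against 66.3% of all genes), with a median log2 fold change of 0.26. Sytl1, a synaptotagmin-like effector of Rab27, was at 50.7, 49.9 and 50.5 CPM in the KO-labelled libraries and at 9.03, 9.05 and 8.67 CPM in WT. It was far apart between groups, 5.62-fold higher (log2 fold change 2.49, SE 0.08, edgeR adjusted p = 4.11e-15). Of the 5 tested Rab27 effectors, 3 were higher and 1 lower (80% called, against 66.3% of all genes). Sytl2 and Unc13d, which primes granules for fusion, were higher, with log2 fold changes of 1.23 and 0.72, and Sytl3 was lower at -0.85. The fifth, Rph3al, was not called (edgeR adjusted p = 0.850). Ppm1h, a phosphatase that removes LRRK2 phosphates from Rabs, was at 122.7 ± 7.25 CPM in the KO-labelled libraries and 37.3 ± 0.853 CPM in WT (log2 fold change 1.72). Rims2, a Rab3 effector of presynaptic exocytosis, had the largest log2 fold change of the list, 3.76, at 5.80 ± 0.688 CPM in the KO-labelled libraries and 0.363 ± 0.150 CPM in WT, and was picked after its value was seen. Rilpl2, an effector of LRRK2-phosphorylated Rabs, was the most reduced, at 62.1 ± 4.42 CPM in the KO-labelled libraries and 196.3 ± 2.54 CPM in WT (log2 fold change -1.66, edgeR adjusted p = 8.45e-15). The Rab11 family interacting proteins were split, with Rab11fip4 higher, at a log2 fold change of 1.17, Rab11fip1 and Rab11fip5 lower, at -0.50 and -0.68, and 2 not called.

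**Figure D5:**
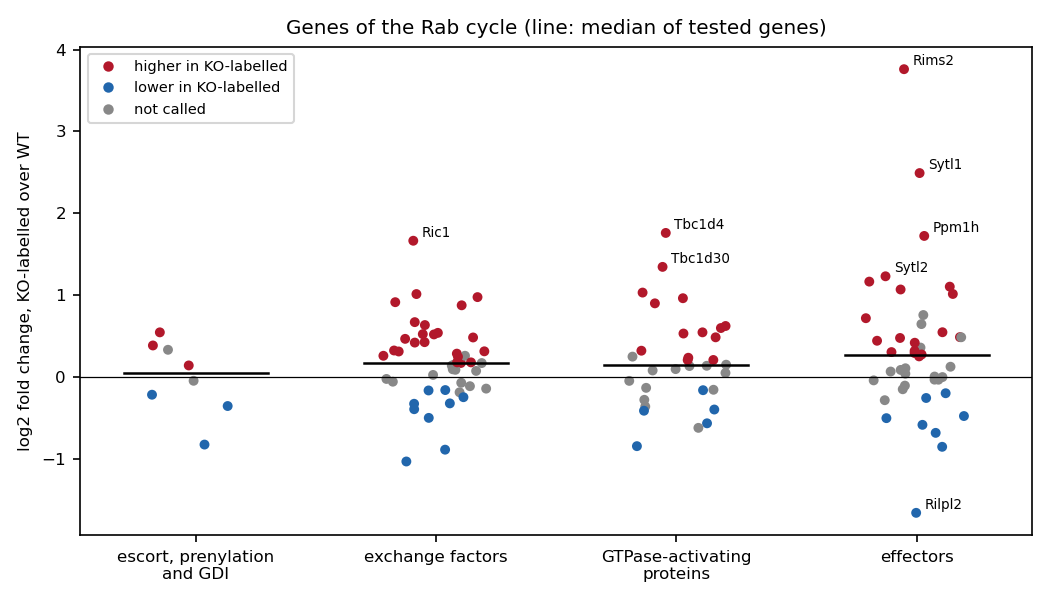
Log2 fold changes (KO-labelled libraries over WT, vertical axis) of the tested genes of 4 lists of the Rab cycle, each point 1 gene, with the median as a line. The medians are 0.05, 0.18, 0.14 and 0.26 from left to right, and Rims2 and Sytl1 are the highest points and Rilpl2 the lowest.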

How the data were processed

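The authors deposited 1 table of expected counts, estimates per gene that may hold fractions. Per the submitters' processing notes, the tools were Partek 10.0, STAR 2.7.8 and DESeq2 and the build mm10 (roles and order not stated). How reads were counted, and with what strand setting, is not given in the sources used here. Overlapping genes and close paralogs may therefore share reads: 30 of the 52 members overlap another annotated gene, and 18 had values more than 0.02 from a whole number. Counts were rounded and tested with the quasi-likelihood test of edgeR 4.0.16 (R 4.3.3) scaled by TMM and filtered by filterByExpr (counts of 10, total of 15), with genotype as term, over all 12150 genes that passed. The standard error (SE) of a log2 fold change is approximate, its absolute value over the square root of the F statistic, and intervals are 1.96 SE either side. Positions are from GENCODE M21 (GRCm38), which matched 16200 of 16588 rows, and promoter windows from RefSeq. Fits were tested on simulated data.

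Values in every library are given for the most abundant member of each role class, up to 4 called members per class with the largest change, at least 5 CPM and no overlap, and members with at least a 2-fold difference and 1 CPM. Regulators are named by the 4 smallest p-values per list at 5 CPM or more; Rims2, Unc13d, Sytl3, Rph3al and the Rab11fip genes were added afterwards, and 1 gene this rule names is not reported here. Members and lists were chosen with earlier results of these data known. Within groups, chi-square per gene was 4.01 to 7.59 between library pairs, above sampling noise. Same-numbered replicates did not deviate together (r = 0.0057 to 0.0656), so replicate number was an alternative only, as were DESeq2 1.42.0, limma-voom (limma 3.58.1), other filters and scaling, thinning of WT replicate 2, a GC content and length offset, and leaving out each library.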

Additional observations from a re-analysis of the deposited data

How the results depend on the processing

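Across the alternatives that kept all 6 libraries, 21 to 24 Rab members were higher and 7 or 8 lower in the KO-labelled libraries. Leaving out 1 library gave 18 to 23 higher and 5 to 8 lower, with the lowest counts without replicate 2 of the KO-labelled libraries and without WT replicate 2, and the cause was not tested. With replicate number as a block the counts were 24 and 8, and for regulators and effectors 59 and 25, the same as without it; replicate numbers are a label only, since same-numbered libraries correlated at 0.0057 to 0.0656. Of the 44 tested members, 34 kept their call under every alternative run, 22 of them called, and the 10 others lost a call under at least 1. DESeq2 did not call Rab1a, Rab28 and Rab33b (adjusted p = 0.0680, 0.0512 and 0.0513), and Rab1a was also lost without a filter (0.114). No called member changed sign. Regulators and effectors gave 50 to 60 higher and 21 to 29 lower. Both the 50 higher and the 29 lower came with the GC content and length offset. Under that offset, 3751 of all genes tested were higher and 4140 lower. Of the 10 members with the highest level per kb, 8 to 10 were also in the top 10 of each single library, and 9 with the longest transcript as length. Rab33a was called in all alternatives that tested it. The 8 members with too few counts for the test were not called when the filter was left off, which gave 23 higher and 8 lower of 52, and small differences in them would not be detectable at this depth.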

Other observations

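Some rows named for Rabs but outside the rule were also measured. Rab5if, a Rab5-interacting factor, was lower, at 121.7 ± 1.52 CPM in the KO-labelled libraries and 165.9 ± 3.05 CPM in WT (SD, n = 3 each, log2 fold change -0.45, edgeR adjusted p = 1.09e-07). Rab10os, antisense to Rab10, was at 16.0 ± 1.44 CPM in the KO-labelled libraries and 16.2 ± 2.14 CPM in WT and was not called (edgeR adjusted p = 0.749). The pseudogene Rab11b-ps2 was at 0.299 ± 0.239 CPM in the KO-labelled libraries and 0.402 ± 0.0835 CPM in WT, and was not tested.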
